A study of Homo sapiens with 33 samples.

Results

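The aminoacyl-tRNA synthetases were followed as 36 genes of the 26475 in the table, chosen by name: 20 genes for the enzymes of the cytosol and 16 for those of mitochondria, whose symbols end in 2. All 36 passed the filter on low counts that left 14613 genes for testing, with between 100 and 9947 reads per gene and library. HEK293T cells, an established human line of embryonic kidney origin, were sequenced as total RNA after plasmid transfection and sorting for green fluorescence 36 to 40 h later. Each editor plasmid also encoded EGFP through a P2A peptide, so all sorted cells carried that marker.

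Each of 11 groups held 3 libraries. The SpACE groups received a dual editor that acts on adenine and cytosine, with a guide RNA to HEKsite2 or to RNF2, and the Target-AID groups received a cytosine editor with the same guides. The miniABEmax-V82G and ABEmax groups received adenine editors, again with HEKsite2 or RNF2 guides. The nCas9 groups received the Cas9 nickase with either guide, and the GFP group received GFP and no guide. All groups share the line, the transfection and the sort. A single line of cells limits these groups as a model, and the labels do not say that replicates came from separate cultures, so p-values here reflect the scatter among libraries alone.

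A synthetase joins one amino acid to its tRNA, the step that fixes the genetic code. The cytosolic enzymes serve translation of nuclear genes, and most mitochondrial enzymes are made from separate nuclear genes and imported. GARS and KARS are known exceptions that give both forms from the same gene. Uncharged tRNA activates the kinase EIF2AK4 (GCN2), which raises translation of ATF4, a factor that binds the C/EBP-ATF response element near several genes of amino acid supply.

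The core of that element, TGATGNAA, was looked for on both strands in RefSeq promoter windows (GRCh38.p14), each 250 bases before to 50 after a start site. Windows were used for 30 of the 36 genes, and none was used for AARS2, DARS, LARS, VARS, VARS2 and YARS. The motif was found in 6 of 16 cytosolic windows (37.5%), AARS, CARS, IARS, MARS, NARS and TARS, and in 1 of 14 mitochondrial windows (7.1%), YARS2. Of all 35116 RefSeq promoter windows, 1270 held it (3.62%). Stretches of 5 of these promoters are shown because these genes carry the values reported below; they are written 5′ to 3′ on the strand of the gene, with the motif in capitals, which reads TTGCATCA where it lies on the other strand.
AARS, chr16:70289646-70289733, minus strand: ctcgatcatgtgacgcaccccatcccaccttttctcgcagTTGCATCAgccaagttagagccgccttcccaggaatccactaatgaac
CARS, chr11:3057418-3057465, minus strand: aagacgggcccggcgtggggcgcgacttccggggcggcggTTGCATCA
IARS, chr9:92293698-92293750, minus strand: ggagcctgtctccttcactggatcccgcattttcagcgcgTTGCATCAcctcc
MARS, chr12:57488024-57488071, plus strand: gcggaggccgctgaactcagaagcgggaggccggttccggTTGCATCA
TARS, chr5:33440927-33440974, plus strand: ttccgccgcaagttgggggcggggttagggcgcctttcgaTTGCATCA
All 5 hold the same 8 letters, and in CARS, IARS, MARS and TARS these begin within 13 bases of the start site that RefSeq gives, whereas in AARS they begin 187 bases before it. A match is a description of the letters, and GARS, whose window holds none, is described beside these genes below.

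In GFP libraries the cytosolic genes were the higher ones. Per kilobase of exon (GENCODE 29), the mean level was highest for SARS (206 ± 1.44 CPM per kb), IARS (191 ± 6.01) and EPRS (161 ± 0.800), for serine, isoleucine, and glutamate with proline (SD, n = 3). Of the 20 highest genes 19 were cytosolic, the exception being IARS2 at 91.2 ± 3.06 CPM per kb, and the 10 lowest were all mitochondrial. MARS2 was lowest at 8.14 ± 0.651 CPM per kb and PARS2 next at 8.42 ± 1.00, a difference within their spread. HARS was the lowest cytosolic gene, at 21.6 ± 1.16 CPM per kb, below YARS2 at 24.6 ± 0.738. The length takes in every annotated exon of a gene, 4234 bp for HARS and 2122 bp for YARS2. HARS had more reads than YARS2 in every library, so the order of these genes depends on that length. NARS (82.3 ± 1.63) and LARS (82.1 ± 2.57) did not differ beyond their spread.

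**Figure D1:**
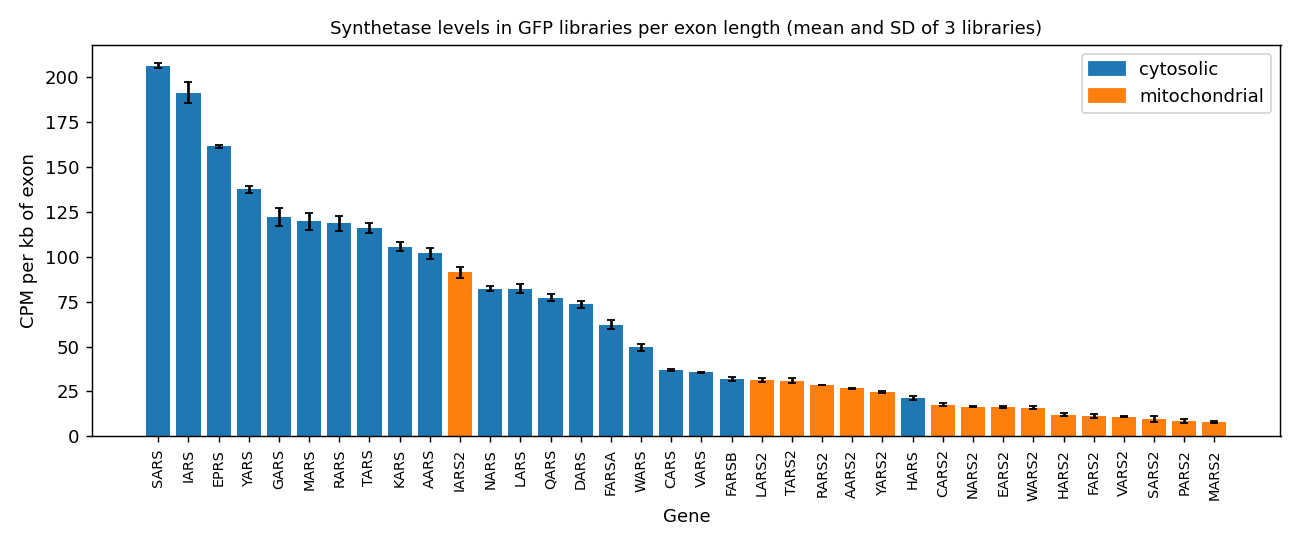
Level of each synthetase gene per kilobase of exon in the 3 GFP libraries (bars: mean; whiskers: SD), with cytosolic genes in blue and mitochondrial genes in orange. SARS stands highest at 206 CPM per kb and MARS2 lowest at 8.14, and IARS2 is the only orange bar among the 20 highest.

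Fold changes below compare levels in CPM scaled by TMM, and a gene is called higher or lower when its adjusted p is under 0.05 in edgeR's quasi-likelihood test. Each value came from bulk RNA of sorted cells, in which fewer cells of a type and less RNA per cell cannot be told apart. Total counts ran from 6790209 to 11200406 per library, and replicate libraries correlated at r of 0.987 to 0.994 in log2 CPM. Counts of any 2 replicates differed by more than sampling noise (chi-square per degree of freedom 1.43 to 22.4), so no library was counted as a copy. Replicate 3 of Target-AID with each guide lay farthest from its group: pairs with it gave 10.7 to 22.4, against at most 5.34 in groups of other constructs. The line's own markers LIN28B, NEFL and NEFM were present in every group and PAX2 at 2 to 14 reads per group. The 5 liver markers summed to 1.93 to 3.39 CPM in Target-AID libraries and 0 to 0.899 CPM elsewhere. SERPINA1 had 51 and 34 reads per Target-AID group (HEKsite2 and RNF2) and APOB 31 and 32. APOA1 was not raised there, with 0 and 8 reads against 3 to 9 in the other groups. ALB had 1 to 6 reads in any group and AFP 0 to 2. The part of the liver markers in the Target-AID results was not tested. The 4 blood markers summed to at most 0.353 CPM and the 3 fibroblast markers to between 9.24 and 23.5 CPM. The median coefficient of variation of a synthetase gene within a group was 4.38% and the largest 17.9%.

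With every editor more cytosolic genes were called higher than lower, relative to nCas9 with the same guide, and few mitochondrial genes were called. In SpACE with HEKsite2, 9 of the 36 genes were called higher and 3 lower, while 21% of all tested genes were called, 10.7% higher and 10.2% lower. Target-AID with HEKsite2 had 7 genes higher and 4 lower, beside 40.6% of all tested genes, 21.5% higher and 19.1% lower. For miniABEmax-V82G with HEKsite2 the counts were 3 and 1, beside 10.3% of all genes, 5.02% higher and 5.32% lower. ABEmax with HEKsite2 had 8 higher and 2 lower, beside 15.9%, 8.31% higher and 7.55% lower. The share called of the 36 was thus above that of all genes for SpACE and ABEmax, and near it for miniABEmax-V82G (11.1%). In Target-AID, where the most genes changed, it was below.

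In SpACE with RNF2, 12 genes were called higher and 0 lower, while 14.7% of all tested genes were called, 8.03% higher and 6.68% lower. Target-AID with RNF2 had 11 higher and 3 lower, beside 35.2% of all genes, 19.4% higher and 15.8% lower. For miniABEmax-V82G with RNF2 the counts were 6 and 1, beside 12.6%, 6.88% higher and 5.72% lower. ABEmax with RNF2 had 7 higher and 1 lower, beside 11.2%, 6.51% higher and 4.66% lower. More of the 36 genes were thus called higher than lower in each comparison with either guide. In Target-AID with HEKsite2, however, the share higher was 19.4%, below the 21.5% of all genes, and the median log2 fold change was -0.02. The 4 comparisons of a guide share the nCas9 libraries, so they are not independent.

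Read by class, most calls were of cytosolic genes. In SpACE with RNF2, 11 of 20 cytosolic genes were higher and 0 lower, against 1 higher and 0 lower of 16 mitochondrial genes, and the background share called higher was 8.03%. The median log2 fold change was 0.16 for the cytosolic and 0.04 for the mitochondrial genes, with 0.00 over all genes. No other comparison with nCas9 had as many cytosolic genes higher. In Target-AID with HEKsite2, 6 cytosolic genes were higher and 4 lower, with medians of 0.01 (cytosolic) and -0.03 (mitochondrial). With RNF2 the 2 medians were near equal in Target-AID (0.096 and 0.096) and in miniABEmax-V82G (0.074 and 0.070). Over the 8 comparisons, 58 of 160 cytosolic values (36.2%) were called higher and 9 (5.6%) lower. Of 128 mitochondrial values, 5 (3.9%) were called higher and 6 (4.7%) lower. Over the same 8 comparisons 10.8% of the values of all tested genes were called higher and 9.39% lower. A log2 fold change above 0.3 was reached by 23 cytosolic and 2 mitochondrial values, and none of either class was below −0.3. The mitochondrial genes had fewer reads, with median counts per library of 141 to 1900 against 822 to 7202, and their standard errors had a median of 0.0715 against 0.0600, so a small change was harder to call in them.

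Several of these counts fell when single libraries were left out. Replicate 1 had the highest mean log2 level of the cytosolic genes in every group but Target-AID with RNF2. Leaving it out of 1 of those editor groups therefore lowered that group's mean while nCas9 kept its own replicate 1. The part of this in the drops was not tested. Without replicate 1 of SpACE with RNF2 the 12 called genes became 6, and without that of SpACE with HEKsite2 the 12 became 7. Leaving out replicate 1 of miniABEmax-V82G with RNF2 took 7 genes to 2, and leaving out that with HEKsite2 took 4 to 2. The 8 genes called in ABEmax with RNF2 were 4 without its first library or without the second nCas9 library, and 5 without its second or without the third nCas9 library. The count of 12 in SpACE with RNF2 was 7 without the third nCas9 library. Without replicate 3 of Target-AID 12 genes were called in place of 11 with HEKsite2, and 12 in place of 14 with RNF2. A fit of the compared groups alone called 7 in place of 14 in Target-AID with RNF2.

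**Figure D2:**
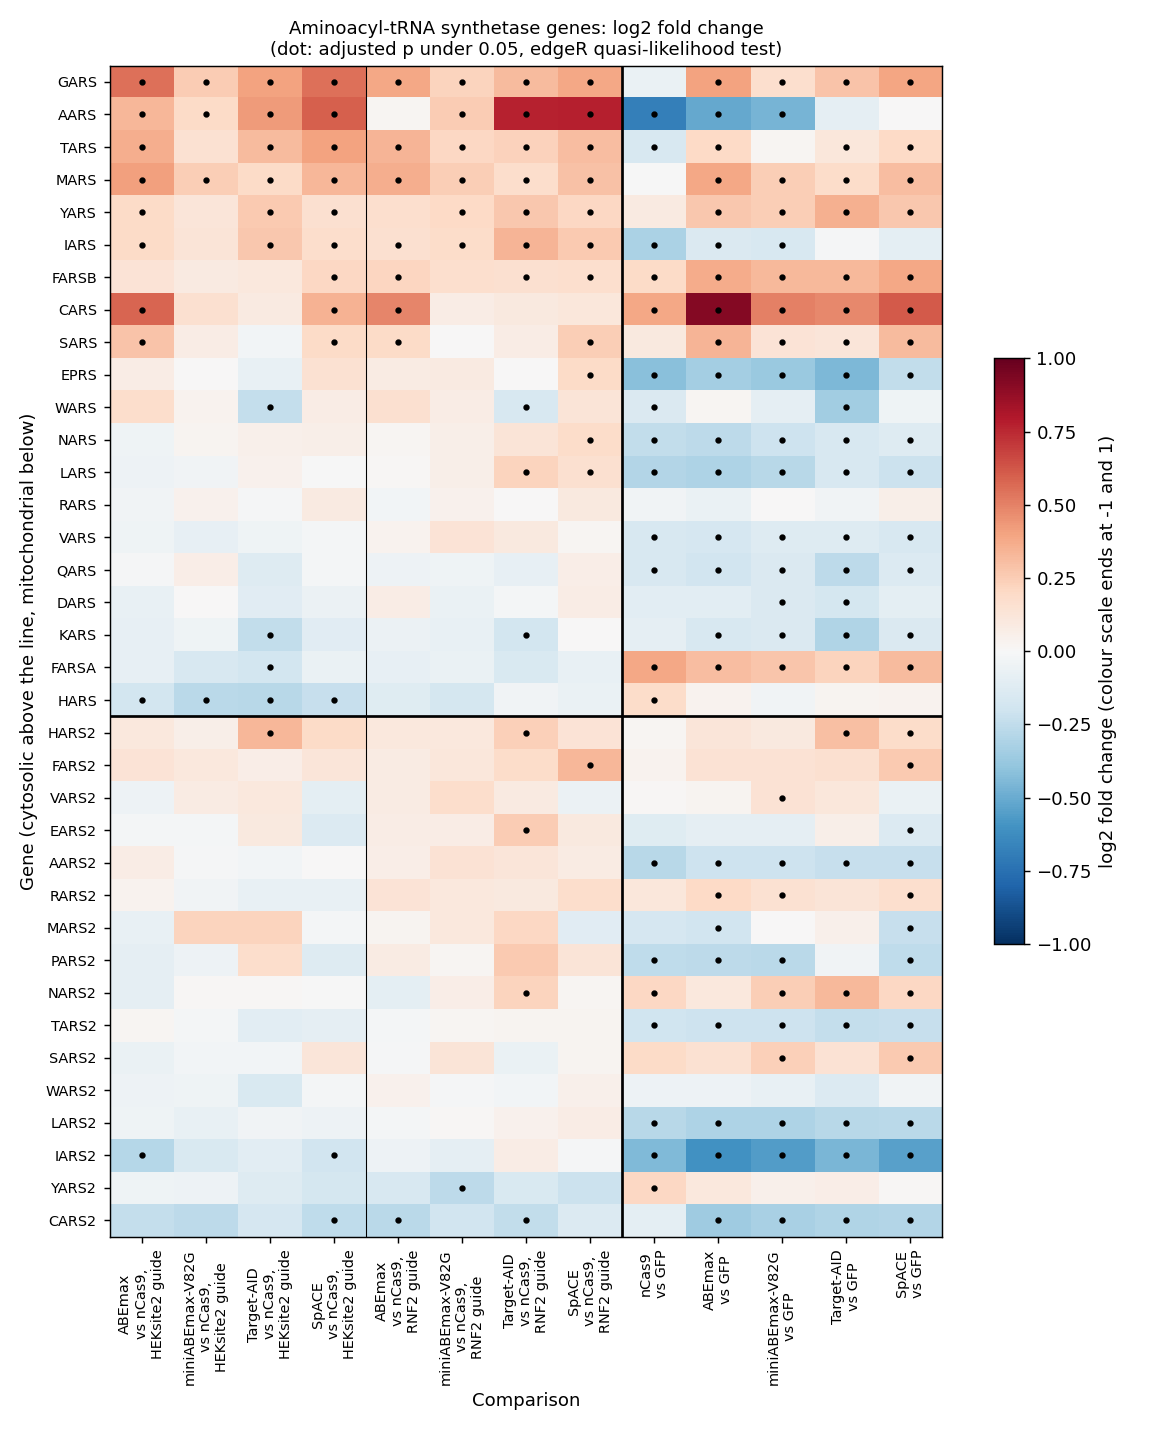
Log2 fold change of each synthetase gene (rows, cytosolic above the line) in each comparison (columns: editors against nCas9 with the same guide, then constructs against GFP); a dot marks adjusted p under 0.05. In the first 8 columns red marks most of the dots in the upper rows, with AARS reaching 0.78 in SpACE with RNF2, and the mitochondrial rows stay between −0.28 and 0.34 there.

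GARS, the glycine enzyme on chromosome 7 (30594681 to 30634033, plus strand), was higher in 8 of 8 comparisons with nCas9. With HEKsite2 it had 447, 413 and 423 CPM in SpACE libraries, 412, 372 and 376 in Target-AID, 372, 339 and 334 in miniABEmax-V82G and 461, 410.1 and 416 in ABEmax, against 314, 286 and 278 CPM in nCas9. With RNF2 it had 466, 394 and 416 CPM in SpACE, 420.2, 393 and 401 in Target-AID, 394, 375 and 372 in miniABEmax-V82G and 445, 424 and 408 in ABEmax, against 331, 331 and 316 CPM in nCas9. In each comparison all 3 editor libraries stood above all 3 nCas9 libraries. The log2 fold change (± SE) was 0.55 ± 0.0629 in SpACE and 0.55 ± 0.0633 in ABEmax with HEKsite2 (adjusted p = 2.32e-08 and 1.74e-08). It was smallest in miniABEmax-V82G, at 0.25 with HEKsite2 and 0.22 with RNF2 (adjusted p = 0.00706 and 0.0154), and both of these calls were lost without the first miniABEmax-V82G library, the second also without the third nCas9 library. GFP libraries had 339.6, 316 and 316 CPM of GARS.

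MARS, the methionine enzyme on chromosome 12 (57475445 to 57517569, plus strand), was likewise higher in 8 of 8. Its level with HEKsite2 was 456, 420.4 and 421 CPM in SpACE, 411, 381 and 381 in Target-AID, 408, 404 and 409 in miniABEmax-V82G and 479, 449 and 443 in ABEmax, against 358, 330.2 and 341 CPM in nCas9. With RNF2 the values were 448, 426 and 413 CPM in SpACE, 386, 381 and 424 in Target-AID, 414, 416 and 421 in miniABEmax-V82G and 462, 461 and 435 in ABEmax, against 347, 343 and 364 CPM in nCas9. No editor library overlapped the nCas9 libraries of its guide. ABEmax gave the largest differences, 0.41 ± 0.0548 with HEKsite2 and 0.37 ± 0.0546 with RNF2 in log2 fold change (adjusted p = 5.32e-07 and 8.40e-06). Target-AID gave the smallest, 0.19 ± 0.0547 and 0.18 ± 0.0546 (adjusted p = 0.00494 and 0.0101), and the call with RNF2 was lost without replicate 3 of Target-AID and in a fit of the compared groups alone. MARS shares 62 bp of exon with DDIT3 on the other strand, and the strand setting of the counting is not given in the sources used here, so reads in that stretch could not be assigned. Other members also share exon with a gene on the other strand, among them EARS2 (370 bp), WARS (272 bp), YARS (248 bp) and CARS (157 bp). GFP libraries had 362, 346 and 334 CPM of MARS.

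AARS, the alanine enzyme on chromosome 16 (70252295 to 70289543, minus strand), showed the largest fold changes of the 36 genes against nCas9. With RNF2 it had 360.1, 341 and 307 CPM in SpACE, 354, 329 and 317 in Target-AID, 248, 236 and 214 in miniABEmax-V82G and 195, 201 and 198 in ABEmax, against 191, 201 and 195 CPM in nCas9. SpACE and Target-AID libraries were all far above nCas9, miniABEmax-V82G libraries somewhat above, and ABEmax libraries lay among the nCas9 values. The log2 fold change was 0.78 ± 0.0586 in SpACE, 0.77 ± 0.0586 in Target-AID, 0.25 ± 0.0593 in miniABEmax-V82G and 0.02 ± 0.0596 in ABEmax (adjusted p = 4.73e-13, 7.55e-14, 0.00368 and 0.889). With HEKsite2 it had 374, 386 and 369 CPM in SpACE, 344, 324 and 330.4 in Target-AID, 287, 272 and 289 in miniABEmax-V82G and 322, 299 and 317 in ABEmax, against 257, 239.6 and 248 CPM in nCas9. All 4 editors stood above nCas9 there, with log2 fold changes of 0.60, 0.42, 0.19 and 0.33 (adjusted p = 3.66e-10, 1.77e-07, 0.0303 and 6.93e-05). The call in miniABEmax-V82G was lost without replicate 1 or 3 of its own group or replicate 2 or 3 of nCas9, and with no filter on low counts.

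The control itself differed between guides for AARS: nCas9 libraries with RNF2 were lower than those with HEKsite2, with a log2 fold change of -0.34 ± 0.0592 (± SE, adjusted p = 4.94e-04). Between these nCas9 groups 4 of the 36 genes were called, all lower with RNF2, while 2.07% of all tested genes were called (0.602% higher and 1.46% lower). The other 3 were HARS (-0.26), LARS (-0.19) and RARS2 (-0.29), and the count was 1 without the first HEKsite2 library or the third RNF2 library, and 2 without the second RNF2 library. Against GFP libraries, at 346, 366 and 350.4 CPM, AARS was lower in nCas9 over both guides (-0.68 ± 0.049, adjusted p = 1.94e-14), in miniABEmax-V82G (-0.46) and in ABEmax (-0.51). It was not called in SpACE (0.01 ± 0.0493) or Target-AID (-0.09 ± 0.0492). The order against GFP and the order against nCas9 therefore place the same SpACE level, 336 ± 26.7 CPM with RNF2, near GFP (354 ± 10.6) and well above nCas9 with that guide (196 ± 4.90; SD, n = 3 each).

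TARS, the threonine enzyme on chromosome 5 (33440696 to 33469539, plus strand), was higher in 7 of 8 comparisons. The HEKsite2 libraries had 609, 609.7 and 607 CPM in SpACE, 603, 572 and 550.1 in Target-AID, 529, 504 and 504 in miniABEmax-V82G and 617, 588 and 576 in ABEmax, against 496, 446 and 442 CPM in nCas9. In the RNF2 groups TARS had 648, 581 and 578 CPM in SpACE, 585, 569.9 and 550.2 in Target-AID, 577, 561 and 543 in miniABEmax-V82G and 645, 609 and 591 in ABEmax, against 505, 486 and 465 CPM in nCas9. Editor libraries stood above nCas9 in all 8, but the difference in miniABEmax-V82G with HEKsite2 missed the threshold (0.15 ± 0.0563, adjusted p = 0.079). The largest log2 fold change was 0.40 ± 0.0562 in SpACE with HEKsite2 (adjusted p = 1.56e-06). GFP libraries had 538, 514 and 531 CPM of TARS. The call in miniABEmax-V82G with RNF2 (0.21) was lost without its first library or the third nCas9 library.

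IARS, the isoleucine enzyme on chromosome 9 (92210207 to 92293756, minus strand), was higher in 7 of 8, with smaller differences. The HEKsite2 groups had 823, 849.6 and 864 CPM in SpACE, 904, 906 and 894 in Target-AID, 803, 816 and 831 in miniABEmax-V82G and 866, 823 and 866 in ABEmax, against 754, 746 and 741 CPM in nCas9. With RNF2 the libraries had 916, 834 and 853 CPM in SpACE, 925, 914 and 909 in Target-AID, 839, 834 and 792 in miniABEmax-V82G and 823, 814 and 787 in ABEmax, against 740.2, 716 and 711 CPM in nCas9. Target-AID gave the largest log2 fold changes, 0.34 ± 0.0491 with RNF2 and 0.27 ± 0.0491 with HEKsite2 (adjusted p = 5.66e-07 and 2.17e-05). The one value not called was miniABEmax-V82G with HEKsite2 (0.13, adjusted p = 0.086). The call in ABEmax with RNF2 (0.16, adjusted p = 0.0268) was lost without replicate 1 or 2 of ABEmax or replicate 2 or 3 of nCas9, and that in miniABEmax-V82G with RNF2 without its first. With no filter on low counts, 4 of the 7 IARS calls were lost. Against GFP, at 883, 935 and 930.3 CPM, IARS was lower in nCas9 (-0.32, adjusted p = 5.47e-08) and not called in Target-AID (-0.01).

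YARS, the tyrosine enzyme on chromosome 1 (32775237 to 32818153, minus strand), was called higher in 6 of 8. In HEKsite2 groups YARS had 534, 490.0 and 498 CPM in SpACE, 595, 515 and 528 in Target-AID, 511, 491 and 481 in miniABEmax-V82G and 541, 506 and 510.3 in ABEmax, against 478, 454 and 433 CPM in nCas9. In RNF2 groups it stood at 615, 539 and 545 CPM in SpACE, 609.8, 570.1 and 598 in Target-AID, 581, 558 and 557 in miniABEmax-V82G and 567, 545 and 543 in ABEmax, against 499.7, 486 and 489.9 CPM in nCas9. The groups did not overlap in any of the 8, and the log2 fold changes ran from 0.12 to 0.27. Calls outside Target-AID rested on single libraries: that in SpACE with HEKsite2 (adjusted p = 0.0463) was lost without replicate 1 or 3 of SpACE or replicate 2 or 3 of nCas9, and that with RNF2 (adjusted p = 0.0125) without the first SpACE library. The call in ABEmax with HEKsite2 was lost without its first or the third nCas9 library, and the call in miniABEmax-V82G with RNF2 without its first or the second nCas9 library. GFP libraries had 449, 438 and 447 CPM, and YARS was higher than in GFP in SpACE (0.27), Target-AID (0.36), miniABEmax-V82G (0.25) and ABEmax (0.27) and not called in nCas9 (0.09).

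CARS, the cysteine enzyme on chromosome 11 (3000922 to 3057613, minus strand), changed most in ABEmax. Its HEKsite2 values were 208, 182 and 182 CPM in SpACE, 164, 150.5 and 163 in Target-AID, 173, 161 and 167 in miniABEmax-V82G and 222, 221 and 231 in ABEmax, against 149, 145 and 154 CPM in nCas9. Its RNF2 values were 172, 164 and 155 CPM in SpACE, 166, 162 and 158 in Target-AID, 168, 157 and 153 in miniABEmax-V82G and 219, 221 and 196 in ABEmax, against 156, 151 and 147 CPM in nCas9. Every ABEmax library was above every other library of its guide, and the SpACE libraries with HEKsite2 were next. The log2 fold change in ABEmax was 0.59 ± 0.0588 with HEKsite2 and 0.49 ± 0.0584 with RNF2 (adjusted p = 6.92e-10 and 1.02e-07), and in SpACE with HEKsite2 0.35 ± 0.0586 (adjusted p = 2.89e-05). The other 5 values, from 0.07 to 0.16, were not called. GFP libraries were lowest, at 117, 116 and 113 CPM, and CARS was higher than in GFP in ABEmax (0.92 ± 0.0524), SpACE (0.62), miniABEmax-V82G (0.50), Target-AID (0.48) and nCas9 (0.39).

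HARS, the histidine enzyme on chromosome 5 (140673904 to 140691862, minus strand), was the cytosolic gene called lower most often, in all 4 comparisons with HEKsite2. It had 101, 89.2 and 101 CPM in SpACE, 97.3, 92.4 and 92.1 in Target-AID, 99.3, 92.7 and 90.6 in miniABEmax-V82G and 106, 93.7 and 102 in ABEmax, against 123, 109.6 and 108 CPM in nCas9. With RNF2 it had 98.0, 89.3 and 85.2 CPM in SpACE, 87.9, 93.1 and 97.3 in Target-AID, 86.6, 84.9 and 80.6 in miniABEmax-V82G and 89.3, 87.1 and 85.9 in ABEmax, against 97.2, 95.1 and 93.1 CPM in nCas9. With HEKsite2 the log2 fold changes were -0.23, -0.28, -0.27 and -0.18 (adjusted p = 0.00715, 5.26e-04, 0.00371 and 0.0488), and with RNF2 no value was called (-0.18 to -0.04). The nCas9 libraries with HEKsite2 were the highest of the series for this gene, and the difference between guides in the editor effect was not called for any editor. Without the first nCas9 library the HARS calls in SpACE, miniABEmax-V82G and ABEmax were lost. That in ABEmax was also lost without replicate 2 of nCas9 or replicate 2 or 3 of ABEmax, under RLE scaling and in DESeq2, and that in SpACE without its second library. GFP libraries had 96.5, 86.8 and 90.8 CPM of HARS.

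HARS2, the mitochondrial histidine enzyme, starts 436 bp from HARS on the other strand of chromosome 5, and their exons overlap by 402 bp, so some reads could belong to either gene if strand was not used in counting. With HEKsite2 it had 39.7, 38.5 and 40.8 CPM in SpACE, 43.0, 47.5 and 39.8 in Target-AID, 34.8, 36.8 and 36.6 in miniABEmax-V82G and 35.4, 37.1 and 39.0 in ABEmax, against 33.5, 37.3 and 33.4 in nCas9. The RNF2 groups had 39.0, 37.7 and 36.5 CPM in SpACE, 41.9, 41.9 and 37.6 in Target-AID, 36.3, 38.3 and 35.8 in miniABEmax-V82G and 38.2, 35.0 and 37.6 in ABEmax, against 34.1, 34.9 and 33.8 in nCas9. In Target-AID it was higher by 0.33 ± 0.0727 with HEKsite2 and 0.24 ± 0.0731 with RNF2 on the log2 scale (adjusted p = 3.20e-04 and 0.00941), with no overlap of the groups, and the call with RNF2 was lost without replicate 1 or 2 of Target-AID. In the other 6 comparisons HARS2 ran from 0.06 to 0.19 and was not called. GFP libraries had 36.5, 33.9 and 31.8 CPM of HARS2.

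Other cytosolic genes moved with particular editors. WARS, the tryptophan enzyme, had 177, 154 and 157 CPM in Target-AID with HEKsite2, against 206, 188 and 182 in nCas9, and was lower (-0.24 ± 0.0654, adjusted p = 0.00345). With RNF2 it had 174, 164 and 168 CPM in Target-AID, against 194, 188 and 185 in nCas9 (-0.16, adjusted p = 0.0469), a call lost without replicate 2 or 3 of Target-AID or any 1 nCas9 library. KARS, the lysine enzyme, was lower in Target-AID with both guides (-0.24 and -0.18), and the call with RNF2 was lost without the first or second library of either group. FARSA, the catalytic subunit for phenylalanine, was lower in Target-AID with HEKsite2 (-0.18, adjusted p = 0.0234), a call lost without the second library of either group. FARSB, the other subunit, was higher in 4 comparisons (0.21 in SpACE and 0.22 in ABEmax among them), and each of the 4 calls was lost without 1 or more single libraries. SARS, for serine, was also higher in 4, up to 0.28 in ABEmax with HEKsite2, and its calls in SpACE with HEKsite2 and ABEmax with RNF2 were lost without single libraries. LARS was higher in 2 comparisons, Target-AID and SpACE with RNF2 (0.22 and 0.16), and EPRS and NARS in 1 each, SpACE with RNF2 (0.19 and 0.18). In SpACE with RNF2, all 3 of these genes lost their call without the first SpACE library. DARS, QARS, RARS and VARS were called in none of the 8, with log2 fold changes of −0.13 to 0.14.

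In the textbook grouping, DARS, EPRS, IARS, KARS, LARS, MARS, QARS and RARS form the multi-synthetase complex with the scaffold proteins AIMP1, AIMP2 and EEF1E1. Of the 64 values of these 8 enzymes 18 were called higher and 2 lower, with a median log2 fold change of 0.04; 15 of the 18 belonged to MARS and IARS. Of the 96 values of the 12 cytosolic enzymes outside it, 40 were higher and 7 lower, with a median of 0.13. Of the 24 scaffold values 1 was called (4.17%, beside 10.8% higher and 9.39% lower over all genes), AIMP2 in SpACE with RNF2 (0.36, adjusted p = 0.026).

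**Figure D3:**
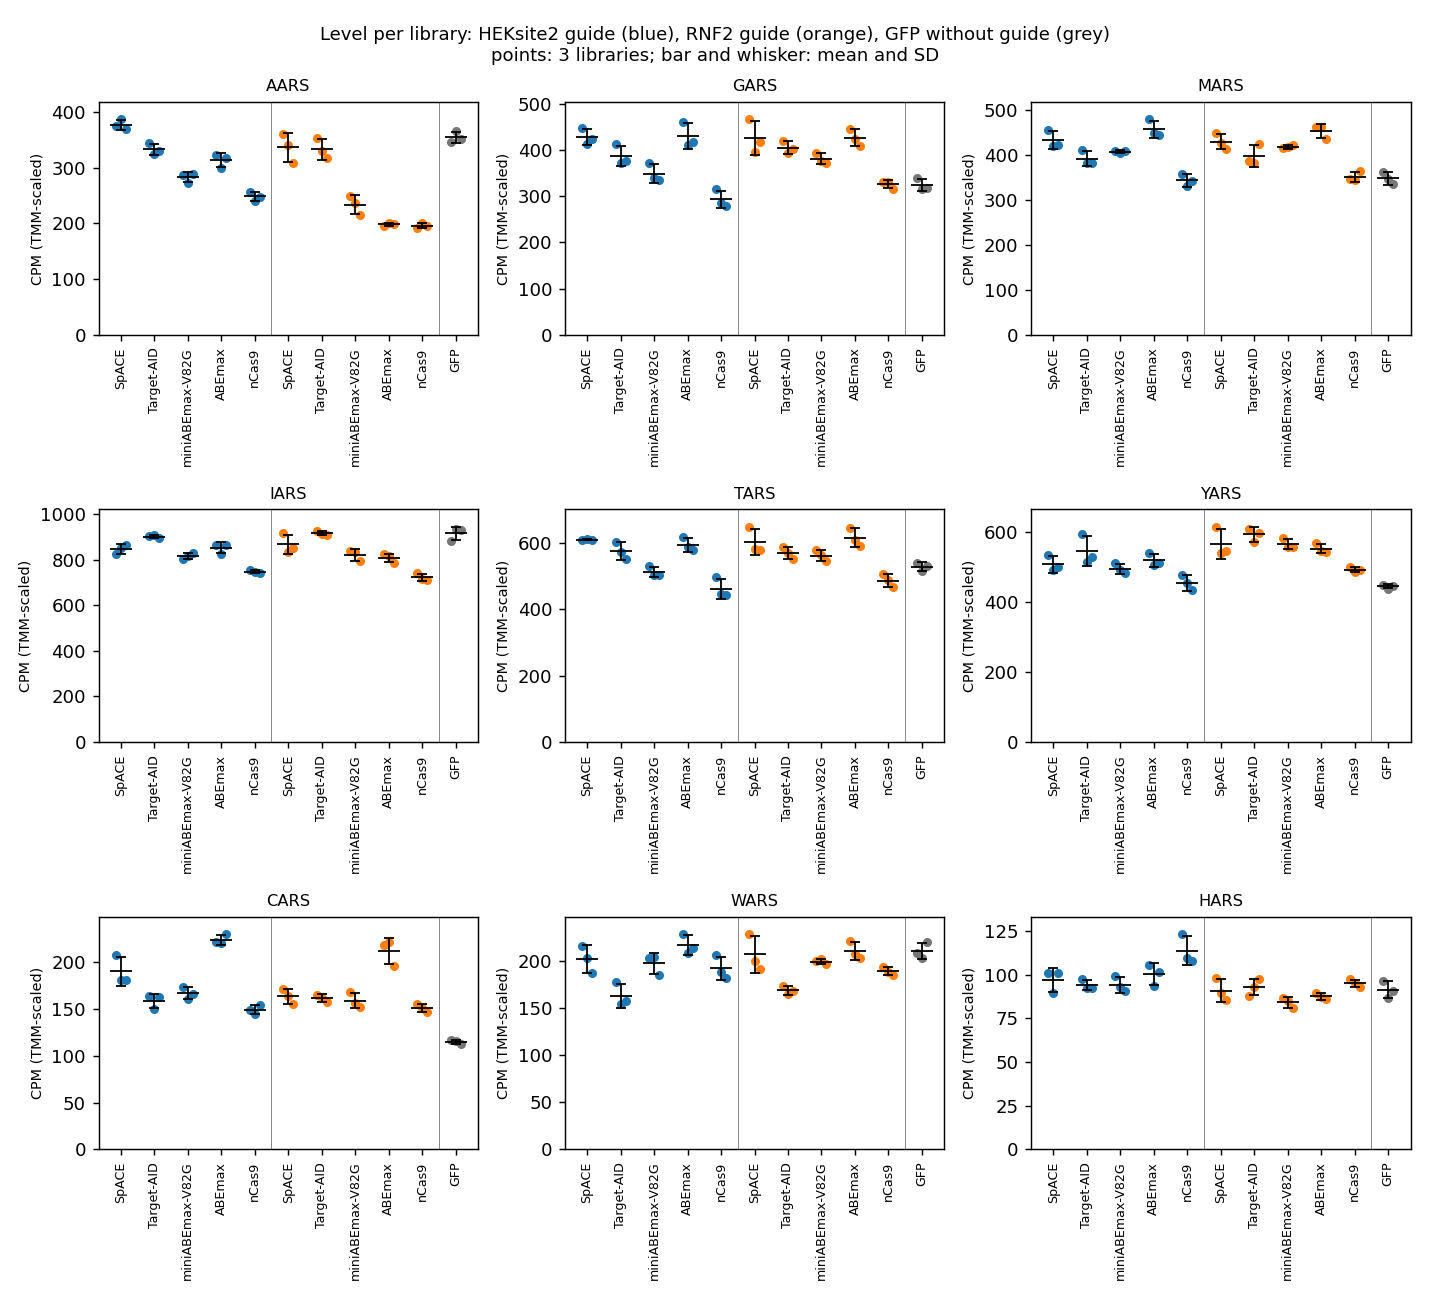
CPM of 9 cytosolic synthetase genes in each library, by construct, with HEKsite2 in blue, RNF2 in orange and GFP in grey; points are libraries and the bar with whisker is the mean and SD of 3. AARS stands at 307 to 386 CPM in SpACE and Target-AID libraries, against 191 to 257 in nCas9, and ABEmax has the highest CARS values with either guide.

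The mitochondrial genes that were called make a short list beside HARS2. CARS2, the cysteine enzyme on chromosome 13 (110641412 to 110713603, minus strand), had values below 0 in all 8 comparisons and was called in 3. HEKsite2 groups had 22.3, 27.2 and 27.8 CPM in SpACE, 26.8, 27.5 and 28.1 in Target-AID, 23.6, 28.0 and 25.3 in miniABEmax-V82G and 26.6, 24.5 and 27.0 in ABEmax, against 33.6, 28.7 and 30.0 in nCas9. RNF2 groups had 24.5, 28.6 and 31.0 CPM in SpACE, 26.7, 26.5 and 24.8 in Target-AID, 27.9, 27.1 and 26.4 in miniABEmax-V82G and 25.4, 25.1 and 26.2 in ABEmax, against 31.3, 33.2 and 28.1 in nCas9. In 7 of the 8 comparisons every editor library was below every nCas9 library, the exception being SpACE with RNF2. The calls were -0.26 ± 0.0902 in SpACE with HEKsite2, -0.27 ± 0.0913 in ABEmax with RNF2 and -0.25 ± 0.0892 in Target-AID with RNF2 (adjusted p = 0.0372, 0.0456 and 0.0269). The call in SpACE was lost without replicate 1 of SpACE or replicate 1 or 3 of nCas9, and that in Target-AID without its replicate 3 or replicate 1 or 2 of nCas9. That in ABEmax was lost without any 1 of its own libraries or replicate 1 or 2 of nCas9, and both it and the SpACE call were lost in DESeq2. Its cytosolic counterpart CARS had positive values in all 8.

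IARS2, for isoleucine, on chromosome 1 (220094102 to 220148041, plus strand), was called lower with HEKsite2 in SpACE and ABEmax. With that guide it had 199.5, 225 and 246 CPM in SpACE, 236, 254 and 221 in Target-AID, 230.0, 247 and 212 in miniABEmax-V82G and 202, 217 and 210.5 in ABEmax, against 279, 239 and 248 in nCas9. With RNF2 its libraries had 239, 205 and 225 CPM in SpACE, 231, 239 and 239.6 in Target-AID, 208, 217 and 208 in miniABEmax-V82G and 229, 216 and 208 in ABEmax, against 229, 231 and 216 in nCas9. The ABEmax libraries with HEKsite2 were all below nCas9 (-0.28 ± 0.0692, adjusted p = 0.00389), whereas the SpACE libraries overlapped them (-0.19 ± 0.0684, adjusted p = 0.0421). Both calls were lost without replicate 1 of nCas9, and that in SpACE also without replicate 1 or 2 of SpACE. With RNF2 no value was called (-0.09 to 0.07).

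YARS2, for tyrosine, on chromosome 12 (32727490 to 32755902, minus strand), had values below 0 in all 8 comparisons. Its libraries with HEKsite2 had 49.1, 54.5 and 53.1 CPM in SpACE, 54.3, 53.5 and 54.9 in Target-AID, 60.1, 59.2 and 51.3 in miniABEmax-V82G and 64.3, 54.6 and 54.0 in ABEmax, against 59.8, 60.2 and 57.5 in nCas9. Those with RNF2 had 53.4, 53.3 and 52.2 CPM in SpACE, 50.4, 49.9 and 65.8 in Target-AID, 45.1, 49.6 and 59.1 in miniABEmax-V82G and 55.4, 53.4 and 56.6 in ABEmax, against 62.2, 60.6 and 61.6 in nCas9. It was called once, in miniABEmax-V82G with RNF2 (-0.26 ± 0.0855, adjusted p = 0.04), a call lost without replicate 1 or 2 of that group or any 1 nCas9 library. GFP libraries had 53.1, 50.5 and 53.3 CPM of YARS2.

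FARS2, for phenylalanine, on chromosome 6 (5261044 to 5829192, plus strand), was called once, higher in SpACE with RNF2. FARS2 had with HEKsite2 29.3, 23.5 and 27.0 CPM in SpACE, 27.2, 22.7 and 27.0 in Target-AID, 27.3, 27.0 and 24.5 in miniABEmax-V82G and 30.8, 24.8 and 25.0 in ABEmax, against 26.3, 25.1 and 22.0 in nCas9. FARS2 had with RNF2 28.9, 28.7 and 27.8 CPM in SpACE, 25.3, 23.6 and 28.0 in Target-AID, 24.3, 25.4 and 23.4 in miniABEmax-V82G and 23.3, 25.0 and 23.2 in ABEmax, against 21.2, 25.9 and 20.6 in nCas9. The SpACE libraries with RNF2 did not overlap nCas9 (0.34 ± 0.102, adjusted p = 0.0209), and the groups overlapped in the other 7 comparisons. That call was lost without replicate 1 or 2 of SpACE or replicate 1 or 3 of nCas9.

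EARS2, for glutamate, on chromosome 16 (23522014 to 23557731, minus strand), was called once, higher in Target-AID with RNF2. EARS2 had with HEKsite2 67.6, 62.9 and 67.0 CPM in SpACE, 81.7, 77.7 and 72.0 in Target-AID, 75.1, 70.7 and 67.7 in miniABEmax-V82G and 76.1, 65.7 and 72.4 in ABEmax, against 71.5, 75.6 and 70.0 in nCas9. EARS2 had with RNF2 74.6, 67.0 and 67.5 CPM in SpACE, 77.5, 72.4 and 83.6 in Target-AID, 65.2, 72.0 and 68.7 in miniABEmax-V82G and 67.6, 70.4 and 68.6 in ABEmax, against 65.5, 64.2 and 66.1 in nCas9. The difference was 0.25 ± 0.0646 log2 (adjusted p = 0.00206) and was called in every alternative. NARS2, for asparagine, was also higher there (0.22, adjusted p = 0.00805). The other 9 mitochondrial genes were called in none of the 8, with log2 fold changes of −0.15 to 0.26. For SARS2, 83.1% of exon bases are shared with other genes, so its counts are uncertain. The largest overlap, with a gene on the same strand, covers 1492 of its 2215 bp of exon.

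Set beside the gene for the same amino acid, the mitochondrial gene was seldom called with it. AARS was higher in 7 of 8 comparisons and AARS2 in 0, with a range of −0.03 to 0.14. MARS was higher in 8 and MARS2 in 0 (−0.12 to 0.23), TARS in 7 and TARS2 in 0 (−0.10 to 0.03), and IARS in 7 while IARS2 was lower in 2. YARS was higher in 6 and YARS2 lower in 1. HARS was lower in 4 while HARS2 was higher in 2. The difference between the genes of a pair was not tested. WARS2 (−0.15 to 0.05) and LARS2 (−0.07 to 0.07) stayed uncalled beside WARS and LARS.

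The 20 cytosolic genes summed to 6748 ± 422 CPM in SpACE with RNF2, 6486 ± 86.1 in Target-AID, 6276 ± 86.9 in miniABEmax-V82G and 6454 ± 186 in ABEmax, against 5799.9 ± 99.4 in nCas9 (SD, n = 3). With HEKsite2 the sums were 6768 ± 67.0, 6381 ± 233, 6277 ± 138 and 6724 ± 256 CPM in the same order of editors, against 5944 ± 271 in nCas9. GFP libraries summed to 6501 ± 31.3 CPM. The 16 mitochondrial genes summed to 973 to 1052 CPM on average in the groups with guides and to 1147 ± 27.1 CPM in GFP. With HEKsite2 the mean log2 level of cytosolic genes exceeded that of mitochondrial genes by 2.55 ± 0.0178 in SpACE, 2.39 ± 0.0275 in Target-AID, 2.43 ± 0.0518 in miniABEmax-V82G and 2.54 ± 0.00773 in ABEmax, against 2.36 ± 0.0551 in nCas9. The gap with RNF2 was 2.52 ± 0.0405 in SpACE, 2.41 ± 0.0217 in Target-AID, 2.43 ± 0.0385 in miniABEmax-V82G and 2.50 ± 0.0509 in ABEmax, against 2.38 ± 0.0246 in nCas9, and in GFP it was 2.38 ± 0.0238. Target-AID and miniABEmax-V82G libraries overlapped nCas9 in this gap with both guides, and SpACE and ABEmax libraries did not.

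**Figure D4:**
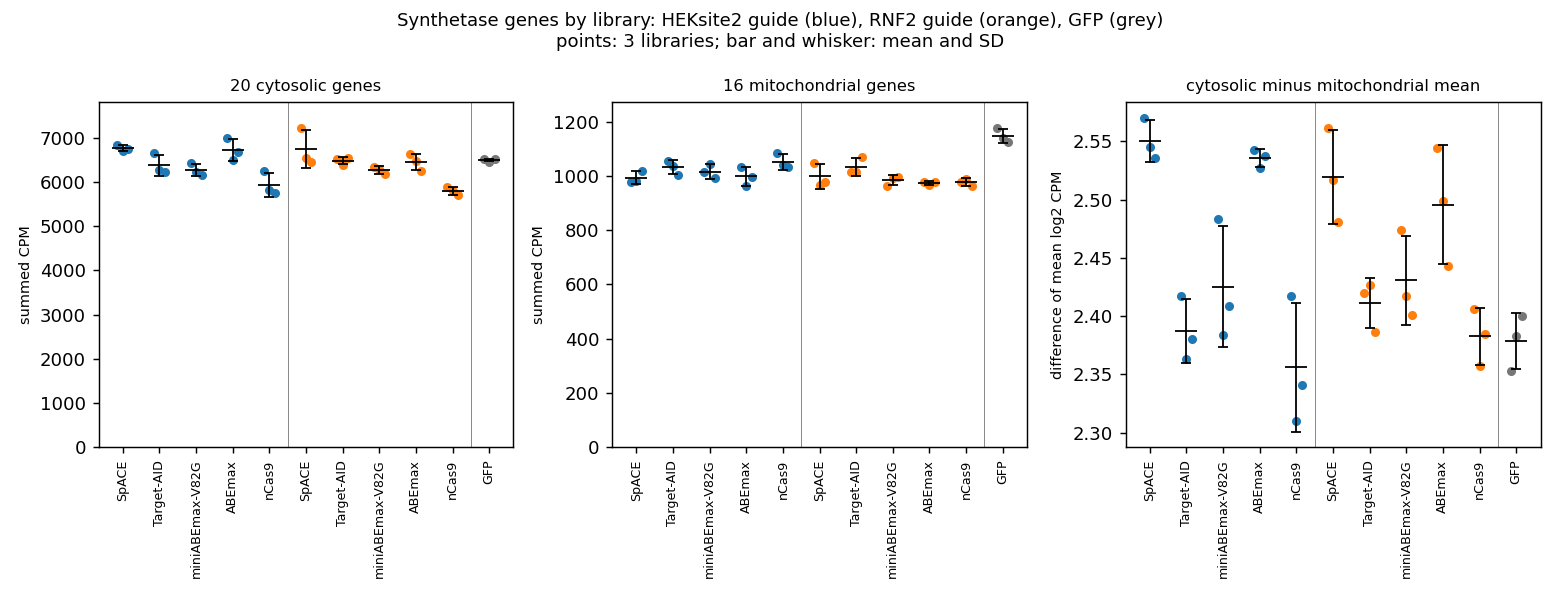
Summed CPM of the 20 cytosolic genes, of the 16 mitochondrial genes, and the difference of their mean log2 levels, per library (HEKsite2 blue, RNF2 orange, GFP grey; bar and whisker: mean and SD of 3). The cytosolic sum is lowest in nCas9 with RNF2 (mean 5799.9 CPM), the mitochondrial sum highest in GFP (mean 1147 CPM), and the third panel's axis does not start at 0.

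Set against each other over both guides, the editors differed in named genes. Against miniABEmax-V82G the share called of the 36 was 16.7% in SpACE and 13.9% in ABEmax, above that of all genes. In the other comparisons it was near or below that of all genes. Between SpACE and ABEmax 3 genes were higher and 1 lower (11.1% of the 36). That was below the 21.3% of all tested genes called (10.3% higher and 11% lower). AARS was higher in SpACE (0.51 ± 0.0411, adjusted p = 1.55e-12) and CARS lower (-0.31 ± 0.0409, adjusted p = 5.22e-07), and the count was 2 without the first SpACE or the third ABEmax library with RNF2. SpACE set against miniABEmax-V82G had 4 genes higher and 2 lower beside 5.95% of all genes (3.21% higher and 2.74% lower), with AARS (0.47), GARS (0.23), SARS (0.18) and TARS (0.18) higher and MARS2 (-0.23) and VARS2 (-0.20) lower. SpACE set against Target-AID had 7 cytosolic genes higher and 4 mitochondrial genes lower beside 32% of all genes (14.9% higher and 17.2% lower). The share called of the 36 was 30.6%, near that of all genes. The largest were WARS (0.30 ± 0.0458), EPRS (0.21) and SARS (0.20) upward, and MARS2 (-0.28), PARS2 (-0.22), EARS2 (-0.19) and VARS2 (-0.18) downward.

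Target-AID set against ABEmax had 3 cytosolic and 6 mitochondrial genes higher and 7 cytosolic genes lower, where 40.5% of all tested genes were called (21.1% higher and 19.4% lower). The share called of the 36 was 44.4%, near that of all genes. AARS led the higher ones (0.42 ± 0.0411, adjusted p = 6.20e-11), and CARS (-0.44), WARS (-0.36), SARS (-0.22) and MARS (-0.21) the lower ones. MARS2 (0.24), PARS2 (0.22), NARS2 (0.21), HARS2 (0.18), IARS2 (0.15) and EARS2 (0.15) were the mitochondrial genes. ABEmax set against miniABEmax-V82G, a smaller editor of the same kind with a named substitution, had 5 cytosolic genes higher and 0 lower beside 5.08% of all genes (3.51% higher and 1.57% lower). They were CARS (0.42 ± 0.0411, adjusted p = 6.19e-10), GARS (0.23), SARS (0.20), TARS (0.17) and MARS (0.14).

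Whether an editor's effect depended on the guide was tested as the difference of its 2 effects against nCas9. None of the 36 genes was called in edgeR for SpACE, Target-AID, miniABEmax-V82G or ABEmax, and of all tested genes 0.0274%, 0.164%, 0.0137% and 0% were. The shares higher and lower were 0.0205% and 0.00684% for SpACE, 0.137% and 0.0274% for Target-AID, 0.00684% each for miniABEmax-V82G and 0% for ABEmax. At an unadjusted p under 0.05 there were 5, 4, 1 and 2 of the 36 genes, beside 7.41%, 8.66%, 6.72% and 4.08% of all tested genes, and DESeq2 called 0, 1, 0 and 0. The nearest was AARS in Target-AID, at 0.35 ± 0.0822 log2 (RNF2 minus HEKsite2, adjusted p = 0.0640). Without replicate 3 of Target-AID with RNF2, 1 gene was called. In ABEmax, where AARS was called with HEKsite2 only, the difference was −0.32 ± 0.0835 (adjusted p = 0.872).

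Against GFP, more genes were called, and with each construct more were lower than higher. The lean was widest in nCas9, with 16.7% of the 36 genes higher and 38.9% lower. Over both guides 13 genes were higher and 14 lower in SpACE, 10 and 13 in Target-AID, 11 and 15 in miniABEmax-V82G, 9 and 15 in ABEmax, and 6 and 14 in nCas9. The 2 classes differed in this. Of the 20 cytosolic genes 8 were higher and 6 lower in SpACE, and 8 and 8 in both Target-AID and ABEmax. They were 7 and 9 in miniABEmax-V82G and 4 and 9 in nCas9. Of the 16 mitochondrial genes 5 were higher and 8 lower in SpACE and 2 and 5 in Target-AID. These were 4 and 6 in miniABEmax-V82G, 1 and 7 in ABEmax and 2 and 5 in nCas9. Of all tested genes 43.3% were called in SpACE (21.4% higher and 21.9% lower), 51.9% in Target-AID (27.4% and 24.6%), 48.5% in miniABEmax-V82G (24.2% and 24.3%), 54% in ABEmax (27% each way) and 45.5% in nCas9 (22.8% and 22.7%). The GFP group carried no guide and no Cas9 construct, so these cannot be told apart here, and the 5 comparisons share the GFP libraries. IARS2, the most abundant mitochondrial gene, had 333, 328 and 313 CPM in GFP, and was lower, with log2 fold changes of -0.54 in SpACE, -0.45 in Target-AID, -0.56 in miniABEmax-V82G, -0.60 in ABEmax and -0.44 in nCas9, all called. EPRS was lower in all 5 as well, at -0.24, -0.45, -0.37, -0.34 and -0.42 in the same order. FARSA was higher in all 5, at 0.32, 0.22, 0.28, 0.31 and 0.39, and FARSB likewise, at 0.38, 0.33, 0.32, 0.37 and 0.20. GARS was higher in SpACE (0.40), Target-AID (0.29), miniABEmax-V82G (0.17) and ABEmax (0.40), and not called in nCas9 (-0.07).

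The genes around the synthetases moved unevenly. Of 7 tested genes of the sensors of uncharged tRNA and the ATF4 branch, 36 of 56 values against nCas9 were higher (64.3%) and 4 lower (7.14%), beside 10.8% and 9.39% of the values of all tested genes. ASNS, asparagine synthetase, had 447, 404 and 412 CPM in SpACE with RNF2 and 406, 414 and 465 in Target-AID, against 251, 250.2 and 243 in nCas9, and was higher in 8 of 8 (0.27 to 0.79). TRIB3, a pseudokinase of that branch, was higher in 8 of 8 (0.28 to 0.82), as was CHAC1, which degrades glutathione (0.48 to 1.00). Named after their values were seen, ATF4 itself was higher in 2 comparisons, both ABEmax (0.27 and 0.23), and lower in 2, SpACE and Target-AID with HEKsite2 (-0.26 and -0.16). DDIT3, another factor of the branch, was higher in ABEmax (0.76 and 0.65) and lower in Target-AID (-0.94 and -0.74). The kinase EIF2AK4, named in the same way, was higher in 4 comparisons and its partner GCN1 in 4.

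Of 72 values of 9 further charging enzymes 7 were higher (9.72%) and 9 lower (12.5%), shares near those of all genes. QRSL1, a subunit of the mitochondrial glutaminyl-tRNA amidotransferase, named after its values were seen, was higher in 5 comparisons. Of 64 values of 8 factors that deliver charged tRNA to the ribosome, 1 was higher (1.56%) and 4 were lower (6.25%), both below the shares of all genes.

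Set beside the promoter motif, 33 of 48 values (68.8%) of the 6 cytosolic genes with a match were called higher and 0 lower, with a median log2 fold change of 0.22. Of the 80 values of the 10 cytosolic genes whose windows hold no match, 17 (21.2%) were higher and 9 (11.2%) lower, with a median of 0.01, and 8 of those 17 belong to GARS. Over the 8 comparisons with nCas9, 10.8% of the values of all tested genes were called higher and 9.39% lower. The 21.2% was thus above the share of all genes and the 11.2% near it. NARS has the motif and was higher in 1 comparison. Of the 8 values of YARS2, the mitochondrial gene with the motif, 0 were higher and 1 was lower. The windows, the motif and the genes were chosen with these values known, so this is a description and no test.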

How the data were processed

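Stranded total RNA libraries from sorted HEK293T cells were measured in 11 groups of 3. The authors deposited raw read counts per gene symbol, per the file headers; STAR, GATK 3.8.1, Picard 2.7 and GRCh38 are named in the submitters' processing notes, while for the step from alignments to counts no tool, strand setting or gene annotation was given in the sources used here. The deposited count columns of SpACE carry UGI in their names, which the labels do not mention. All 33 columns matched a sample by name.

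From these counts, genes were filtered with filterByExpr (minimum count 10), scaled by TMM and fitted in edgeR 4.0.16 (R 4.3.3) with 1 mean per group over all 33 libraries and 22 residual degrees of freedom; quasi-likelihood F-tests gave two-sided p-values, adjusted by the Benjamini-Hochberg method over all 14613 genes, with a threshold of 0.05. Comparisons with GFP and between editors average both guides. Total counts of 6790209 to 11200406 per library set the precision. Before use the fit was run on simulated counts in which the groups were equal but for chosen genes. Far more genes were called in these data, so no conclusion is drawn from that run. Alternatives were RLE scaling, no filter, DESeq2 1.42.0, a replicate block, the compared groups alone, and each library left out in turn.

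The 36 members and the gene lists were chosen with earlier results of these data known. Values are given in full for members called in 1 direction in 6 or more of 8 comparisons with nCas9, and for the cytosolic and the mitochondrial member with the largest called change in each; list genes are named from 6 calls, and 1 list gene is not reported here by name. Gene positions and exon lengths are from GENCODE 29 (GRCh38), and promoter windows and sequences from RefSeq (GRCh38.p14), matched by symbol or synonym.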

Additional observations from a re-analysis of the deposited data

How the results depend on the processing

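No called value of the 36 genes changed direction under any alternative tried. Of the 244 called values over all comparisons, 3 missed the threshold under RLE scaling, 32 with no filter on low counts, 10 in DESeq2, and 14 of 98 in a fit of the compared groups alone; leaving out single libraries, 260 of 2076 did. Fitting only the compared groups gave 7 genes in place of 14 in Target-AID with RNF2. The guide test of Target-AID gave 1 gene in place of 0 with no filter, in DESeq2 and with the replicate block, and 0 to 1 leaving out single libraries.

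Leaving out single libraries, the counts against nCas9 ran from 2 to 5 in miniABEmax-V82G with HEKsite2 (4 with all libraries), 7 to 11 in SpACE with HEKsite2 (12), 4 to 7 in ABEmax with RNF2 (8), 2 to 7 in miniABEmax-V82G with RNF2 (7) and 6 to 11 in SpACE with RNF2 (12). They ran from 2 to 5 between SpACE and ABEmax (4) and from 1 to 3 between the nCas9 groups (4). The cause of these changes beyond the smaller groups was not tested.

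Over all tested genes, replicate numbers paired the samples weakly at most. Of 27 same-numbered pairs of groups compared with nCas9 or between guides, 6 had deviations correlated above 0.1 (−0.0714 to 0.170). Among the cytosolic members, replicate 1 had the highest mean log2 level in every group but Target-AID with RNF2. In nCas9 with HEKsite2 it was 8.09, against 7.98 and 7.97. The main fit held no term for such a shared pattern, and its source was not tested. With the replicate number as a block, 7 genes in place of 4 were called in miniABEmax-V82G with HEKsite2 and 17 in place of 11 between SpACE and Target-AID, and none of the 244 called values was lost. Mitochondrial genes, with median counts of 141 to 1900, limit what this depth can call.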
